A study of Homo sapiens with 4 samples.

Results

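The open chromatin around 10 genes that carry the adrenocorticotropic hormone (ACTH) signal through cyclic AMP (cAMP) was followed in the H295R adrenocortical tumour cell line with SF-1, a nuclear receptor of steroid-producing cells, at its basal or an induced level. The 10 genes were MC2R, MRAP, ADCY3, ADCY4, PRKACA, PRKAR1A, PRKAR2B, PDE8B, PDE11A and CREM, 10 of 20163 protein-coding genes. Their sites were all FAIRE-seq peaks that overlapped the gene body or the 50 kb on either side of it, in GENCODE gene models on GRCh37, the assembly behind hg19. This gave 75 of the 34423 sites listed at basal SF-1 expression and 59 of the 31219 sites listed under SF-1 overexpression.

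FAIRE-seq recovers the DNA that stays in solution when crosslinked chromatin is sheared and extracted, which is mostly DNA free of nucleosomes. The cells were H295R/TR SF-1, 1 subclone of H295R with a doxycycline-inducible copy of SF-1, so basal cells also carried the transgene and their own SF-1. The groups were basal SF-1 expression, without doxycycline, and SF-1 overexpression, for which doxycycline was given over 3 days, with 1 FAIRE library and 1 input DNA library each. With 1 library per condition no difference between conditions could be tested, doxycycline itself could not be told apart from SF-1, and the exact 95% intervals given below cover counting error only. The lists hold no read counts, so depth is unknown. Absence from a list means that no peak was called, not that chromatin was closed, and fewer cells with an open site cannot be told apart from weaker opening in every cell.

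In the adrenal cortex, ACTH binds the melanocortin 2 receptor MC2R, which reaches the cell surface only with its accessory protein MRAP. The receptor activates adenylyl cyclases, and cAMP releases the catalytic subunits of protein kinase A (PKA) from their regulatory subunits, so that the kinase can phosphorylate proteins that drive steroid synthesis and nuclear factors of the CREB family. Phosphodiesterases break cAMP down, and CREM encodes nuclear factors that bind the cAMP response element (CRE).

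The sites on which the account below turns are shown first, as GRCh37 reference sequence on the strand of the gene, 5′ to 3′. The only site of MC2R, at chr18:13915451-13915799, was listed under SF-1 overexpression alone. The stretches of this site outside annotated exons lie between the 5′ ends of the transcripts that start at 13915535 and 13915706 (chr18:13915536-13915628, minus strand) and upstream of both (chr18:13915707-13915799, minus strand). Neither holds an exact SF-1 motif or CRE, so no letter is in capitals.
MC2R between the first exons: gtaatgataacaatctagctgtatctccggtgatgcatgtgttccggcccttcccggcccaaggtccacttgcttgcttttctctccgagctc
MC2R upstream: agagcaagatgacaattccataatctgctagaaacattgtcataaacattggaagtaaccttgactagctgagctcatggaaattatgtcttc

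The 5′ end of the PRKAR2B gene, which encodes a regulatory subunit of PKA, was also covered under overexpression alone, although a basal site lay near the start of another of its transcripts. The part of that site upstream of the gene, at chr7:106684901-106685149 on the plus strand, is rich in G and C and holds neither motif.
PRKAR2B promoter: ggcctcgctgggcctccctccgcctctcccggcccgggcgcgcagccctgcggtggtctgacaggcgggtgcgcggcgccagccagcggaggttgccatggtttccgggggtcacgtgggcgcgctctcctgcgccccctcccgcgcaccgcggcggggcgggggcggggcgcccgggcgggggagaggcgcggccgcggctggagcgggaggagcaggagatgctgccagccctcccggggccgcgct

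In contrast, a promoter inside CREM and a site at the start of PRKAR1A were listed at basal SF-1 expression alone, and each holds a full CRE (TGACGTCA), in capitals. The CREM stretch is chr10:35484651-35484792 and the PRKAR1A stretch is the 30 bases of chr17:66508510-66508539, both on the plus strand.
CREM internal promoter: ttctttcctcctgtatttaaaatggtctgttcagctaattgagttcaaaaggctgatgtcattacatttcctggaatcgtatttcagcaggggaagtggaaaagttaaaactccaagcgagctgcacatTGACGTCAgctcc
PRKAR1A second promoter site: agcgaggcgcatTGACGTCAgtagccgaac

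Sites with an SF-1 motif (CAAGGTCA or CAAGGCCA on either strand, in capitals) are shown in 3 sets, because the motif is the letters that SF-1 binds. Sites listed under SF-1 overexpression alone were those upstream of PDE8B (chr5:76459701-76459820, plus strand) and in introns of PRKAR2B (chr7:106721300-106721419, plus strand) and CREM (chr10:35424851-35424970, plus strand).
PDE8B upstream: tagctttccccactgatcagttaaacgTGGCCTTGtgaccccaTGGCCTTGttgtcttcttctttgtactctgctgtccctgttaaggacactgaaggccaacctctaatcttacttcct
PRKAR2B intron, overexpression-only: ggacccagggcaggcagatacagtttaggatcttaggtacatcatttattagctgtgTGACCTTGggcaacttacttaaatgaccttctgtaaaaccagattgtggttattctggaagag
CREM intron, overexpression-only: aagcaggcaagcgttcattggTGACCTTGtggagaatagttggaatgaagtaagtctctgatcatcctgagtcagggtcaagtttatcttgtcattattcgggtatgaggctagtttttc

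Of the 5 sites with the motif listed at basal expression alone, 3 are shown, in introns of ADCY3 (chr2:25138880-25138999, minus strand) and PRKAR2B (chr7:106688649-106688768, plus strand) and upstream of PRKACA (chr19:14238001-14238120, minus strand). The other 2 lay upstream of PRKACA (chr19:14238851-14238949) and of PRKAR1A (chr17:66487601-66487799).
ADCY3 intron, basal-only: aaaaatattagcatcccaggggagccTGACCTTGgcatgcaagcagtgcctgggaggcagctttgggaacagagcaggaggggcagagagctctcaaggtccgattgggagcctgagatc
PRKAR2B intron, basal-only: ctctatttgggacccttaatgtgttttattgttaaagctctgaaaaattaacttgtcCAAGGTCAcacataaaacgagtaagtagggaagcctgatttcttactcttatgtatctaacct
PRKACA upstream, basal-only: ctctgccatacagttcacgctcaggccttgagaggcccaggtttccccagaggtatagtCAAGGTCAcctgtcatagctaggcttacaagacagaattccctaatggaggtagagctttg

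Sites of both lists held the motif upstream of PRKAR1A, 3 times within chr17:66460201-66460320 (plus strand), and in introns of PDE11A at chr2:178549301-178549400, chr2:178605650-178605749, chr2:178738848-178738947 and chr2:178744786-178744885 (minus strand). The shared intronic site of CREM, chr10:35442501-35442899, also held it in both lists and is not shown. Nor is the shared PDE11A site chr2:178576251-178576399, which held it in the basal listing alone.
PRKAR1A upstream, shared: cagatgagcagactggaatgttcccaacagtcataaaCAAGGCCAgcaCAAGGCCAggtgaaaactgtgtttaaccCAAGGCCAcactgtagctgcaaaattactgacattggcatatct
PDE11A intron, shared, at 178549301: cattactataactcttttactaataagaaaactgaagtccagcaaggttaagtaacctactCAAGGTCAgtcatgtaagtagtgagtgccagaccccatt
PDE11A intron, shared, at 178605650: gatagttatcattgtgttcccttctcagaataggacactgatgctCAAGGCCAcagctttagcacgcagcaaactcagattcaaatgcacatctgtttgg
PDE11A intron, shared, at 178738848: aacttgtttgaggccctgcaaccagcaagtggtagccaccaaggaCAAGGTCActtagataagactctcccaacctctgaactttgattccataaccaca
PDE11A intron, shared, at 178744786: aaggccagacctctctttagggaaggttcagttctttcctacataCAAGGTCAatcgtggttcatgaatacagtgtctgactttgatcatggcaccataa

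Across the 10 genes, the overexpression list held fewer sites than the basal list, 59 against 75. The ratio of 0.787 (exact 95% interval 0.55 to 1.12) has an interval that holds the 0.907 of the whole lists, so a loss beyond that of the lists was not detectable with this number of sites. The member sites covered 20525 bp at basal SF-1 expression and 16741 bp under overexpression. PDE11A alone held 28 of the basal sites (37.3%) and 18 of the overexpression sites (30.5%).

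Sites of the 2 lists that had 1 bp or more in common were counted as shared, and all others as condition-only. Of the basal member sites 41 of 75 were shared (54.7%, 42.7 to 66.2), beside 54.2% of all basal sites. Of the overexpression member sites 41 of 59 were shared (69.5%, 56.1 to 80.8), beside 59.7% of all overexpression sites, a value inside that interval. The other member sites were 34 basal-only and 18 overexpression-only sites.

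The 6 genes ADCY3, PRKACA, PRKAR1A, PRKAR2B, PDE11A and CREM had more basal than overexpression sites, whereas MC2R and PDE8B had more overexpression sites and MRAP and ADCY4 had equal numbers. Over all protein-coding genes 35.0% had more basal sites and 33.2% more overexpression sites. A site within 50 kb was present for 9 of the 10 genes at basal expression, all but MC2R, and for all 10 under overexpression, beside 86.3% and 86.5% of coding genes. Shared sites lay near 9 genes (77.0% of coding genes), basal-only sites near 7 (60.7%) and overexpression-only sites near 8 (60.6%). With 10 genes and 1 library per condition, these counts were not tested against the background.

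**Figure D1:**
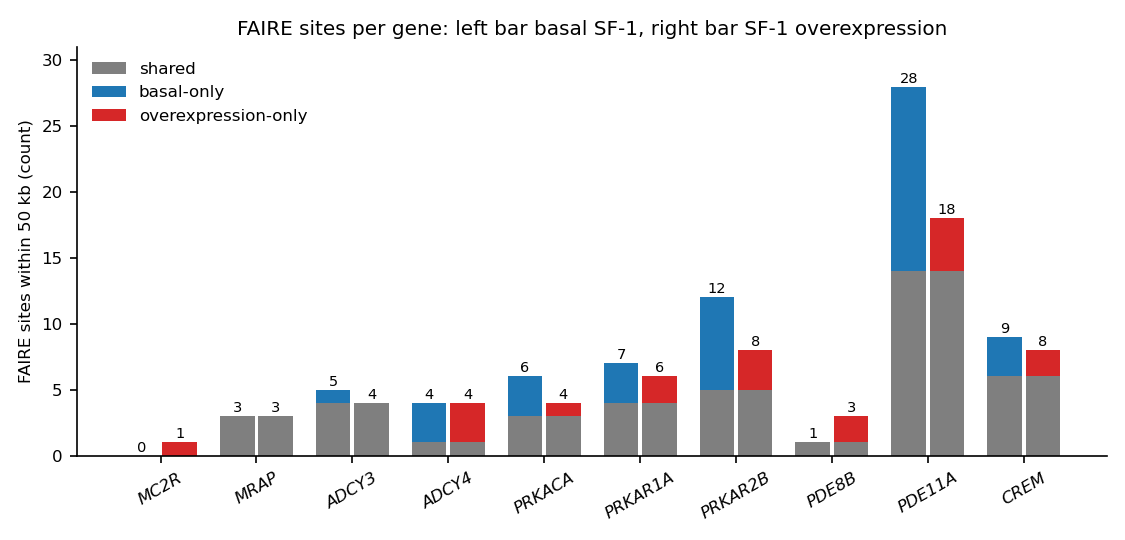
The bars give the number of FAIRE sites within 50 kb of each gene (y axis, count), with the basal list on the left and the overexpression list on the right of each pair. Grey marks shared sites, blue basal-only and red overexpression-only sites, and PDE11A stands out with 28 and 18 sites while MC2R had 0 and 1.

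Because the windows ranged from 116.7 kb for ADCY4 to 585.1 kb for PDE11A, sites were also counted per 100 kb of window. PRKAR2B (5.53 basal and 3.68 overexpression sites per 100 kb), PRKAR1A (5.02 and 4.3), CREM (4.83 and 4.3), PDE11A (4.79 and 3.08) and PRKACA (4.75 and 3.16) were the densest in the basal list, beside medians of 1.89 and 1.84 over coding genes. PDE11A, with the longest window, came after 3 other genes by density in the basal list, and 11.7% of coding genes reached or passed its basal density. In the overexpression list ADCY4 (3.43 in both lists) was denser than PRKACA and PDE11A. The sparsest were MC2R (0 and 0.748) and PDE8B (0.315 and 0.944), and 85.4% of coding genes reached or passed the basal density of PDE8B. No neighbouring values in this order can be told apart by a test, since each rests on 1 library.

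**Figure D2:**
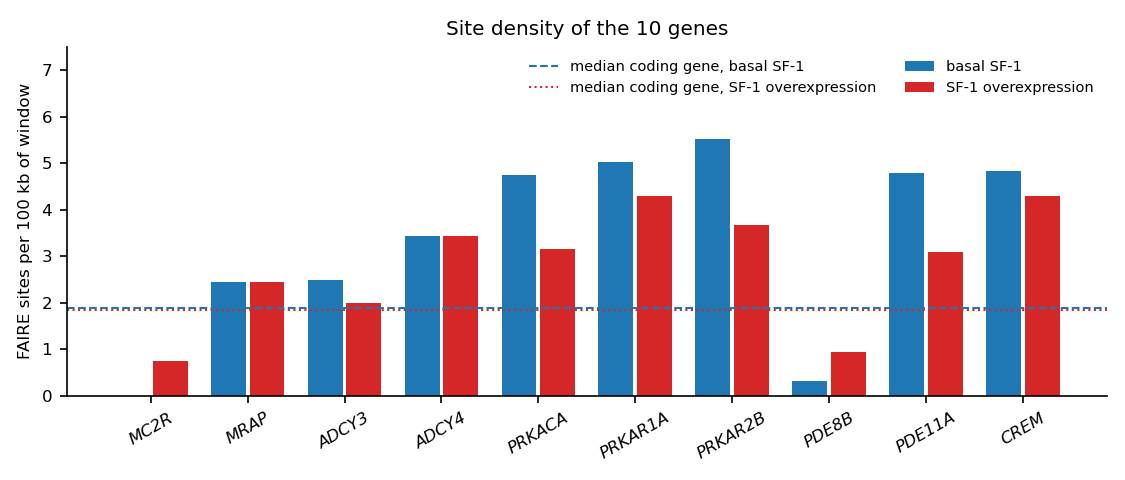
The bars give FAIRE sites per 100 kb of window (y axis) for each gene in the basal (blue) and overexpression (red) list, and the dashed and dotted lines mark the medians of coding genes, 1.89 and 1.84. MC2R and PDE8B lie below both lines, and all the other genes lie above both.

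MC2R, the ACTH receptor, had 1 site in all, and it lay at its promoter. The site spanned 349 bp, held 42.1% GC and stood at 36.9% of the overexpression list, counted by the deposited peak number (0% is the first peak). Sites early in the lists were wider, with a median width of 399 bp in the first 10% and 149 bp in the last 10% of either list, but the quantity behind the order is not stated in the sources used here. The site covered both annotated 5′ ends of MC2R. The nearest basal site was 188751 bp away, far beyond a shift of the site's own width. A promoter site in the overexpression list alone was found for 7.18% of coding genes, and one in the basal list alone for 5.04%.

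The nearest other overexpression site belonged to MC5R, another melanocortin receptor gene and not one of the 10 genes. Its promoter site, chr18:13823951-13824149 (199 bp, list position 52.2%), was likewise overexpression-only and ended 91302 bp before the MC2R site. These were the 2 overexpression sites within a stretch of 405.7 kb in which the basal list had none. MC5R was named after its values were seen.

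The MC2R site held no exact SF-1 motif. With 1 mismatch allowed, it held 3 matches, CAAGGTCC at chr18:13915562-13915569, CAAGGTAA at chr18:13915625-13915632 and CAAGGTTA at chr18:13915737-13915744. Such a match was common, since 440 of the 527 overexpression-only sites of 349 bp (83.5%) held at least 1. This looser search was added after the data were seen.

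MRAP, the accessory protein of MC2R, kept its 3 sites in both lists and had none at its own promoter. The sites were 33175 and 12525 bp upstream and 14706 bp downstream of the gene at basal expression. The middle one of these, at chr21:33651401-33651599, lay at the promoter of MIS18A, so its assignment to MRAP is uncertain. All 3 stood earlier in the overexpression list, moving from 76.1% to 53.1%, from 66.6% to 34.0% and from 28.2% to 19.5%. The downstream site, chr21:33701801-33702049, was 249 bp wide in either list, lay in the body of URB1 and held a CTCF motif in both lists.

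ADCY3 and ADCY4 encode adenylyl cyclases, which make cAMP, and neither had a promoter site in either list. ADCY3 had 5 basal and 4 overexpression sites, of which 4 were shared and lay downstream of the gene. The widest, chr2:25015601-25016049 (449 bp basal, 349 bp overexpression), fell at the promoters of CENPO and PTRHD1. The single site inside ADCY3, the basal-only intronic site chr2:25138851-25138999 (149 bp, list position 77.5%), lay 4181 bp into the gene and held the SF-1 motif shown above. The nearest overexpression site was 55451 bp from it.

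ADCY4 had 4 sites in each list, but only 1 was shared. This site, chr14:24835801-24836249 (449 bp basal, 299 bp overexpression), lay at the promoter of NFATC4 and stood early in both lists, at 11.2% and 9.25%. The widest basal-only sites were chr14:24768951-24769199 (at DHRS1 and NOP9) and chr14:24836451-24836699 (at NFATC4), both of 249 bp. The widest overexpression-only sites, chr14:24740151-24740399 and chr14:24740701-24740949, were also 249 bp wide and lay at RABGGTA. All 8 listings lay at promoters of neighbouring genes, so none of them can be assigned to ADCY4 by position.

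The PKA subunits together had 25 basal and 18 overexpression sites, and all 3 genes had promoter sites in both lists by the 1 kb rule, beside 41.7% of coding genes. PRKACA, the catalytic subunit, had a shared promoter site of 349 bp in the basal list (chr19:14228551-14228899) and 499 bp in the overexpression list (chr19:14228501-14228999). It stood early in both, at 9.29% and 3.6%. The widest shared site, chr19:14247401-14248099, was 699 bp wide at basal expression and 749 bp under overexpression, but lay at the promoter of the next gene, ASF1B. PRKACA had 3 basal-only sites, of which chr19:14238001-14238249 (249 bp) and chr19:14238851-14238949 (99 bp), 9105 and 9955 bp upstream, each held an SF-1 motif. Both of these lay in the body of ASF1B, so they cannot be assigned to PRKACA alone. The 1 overexpression-only site of PRKACA was narrow (chr19:14250651-14250799, 149 bp) and stood at 97.0% of the list.

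PRKAR1A encodes the type I regulatory subunit that holds PKA inactive, and its loss causes Carney complex with adrenal nodules. Its start was covered by 2 basal sites, chr17:66507901-66508199 (299 bp, list position 24.4%) and chr17:66508451-66508599 (149 bp, 70.5%). Under overexpression the first was matched by a site of 149 bp at chr17:66508001-66508149 that stood at 90.7%, and the other, with the CRE, was not listed. The overexpression site ended 301 bp from the missing one. Upstream of PRKAR1A the shared site with 3 SF-1 motifs moved the opposite way, from 85.5% (chr17:66459951-66460299, 349 bp) to 21.5% (chr17:66460101-66460349, 249 bp), while being narrower. Another shared site, chr17:66470451-66470799, moved from 20.3% to 80.8%. The basal-only sites off the promoter, chr17:66459201-66459399 and chr17:66487601-66487799, were both 199 bp wide, lay 48522 and 20122 bp upstream, and the latter held an SF-1 motif. The widest overexpression-only site, chr17:66530301-66530549 (249 bp), lay over an exon. The upstream sites also lie in the body of ENSG00000267009, so they cannot be assigned to PRKAR1A alone.

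PRKAR2B encodes a type II regulatory subunit and had 12 basal and 8 overexpression sites, with 5 shared. Its own 5′ end was covered in the overexpression list alone, by chr7:106684901-106685249 (349 bp, GC 82.2%, list position 18.0%). The nearest basal site lay 3351 bp away, in the first part of the gene, and held an SF-1 motif (chr7:106688601-106688799, 199 bp, basal-only). PRKAR2B counted as having a basal promoter site through chr7:106791051-106791199 (149 bp, 88.4%), which lies near the start of another annotated transcript, 105975 bp into the gene. By the 5′ end of the gene alone, the genes with a promoter site under overexpression only were therefore 2, MC2R and PRKAR2B. The share of 7.18% of coding genes given for MC2R counts any annotated transcript start, and no share was counted for this narrower rule.

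Downstream, the PRKAR2B window reached the promoter of HBP1, where the widest shared site lay (chr7:106808851-106809549, 699 bp basal and 599 bp overexpression, list positions 2.56% and 4.0%). The widest basal-only site, chr7:106820801-106821199 (399 bp), also lay at an HBP1 start. Inside the gene, 2 overexpression-only sites lay in introns, chr7:106704951-106705249 (299 bp) and chr7:106721251-106721449 (199 bp, with the SF-1 motif shown above). The shared intronic site chr7:106719001-106719299 narrowed from 299 to 199 bp and moved from 14.8% to 54.5% of the list.

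**Figure D3:**
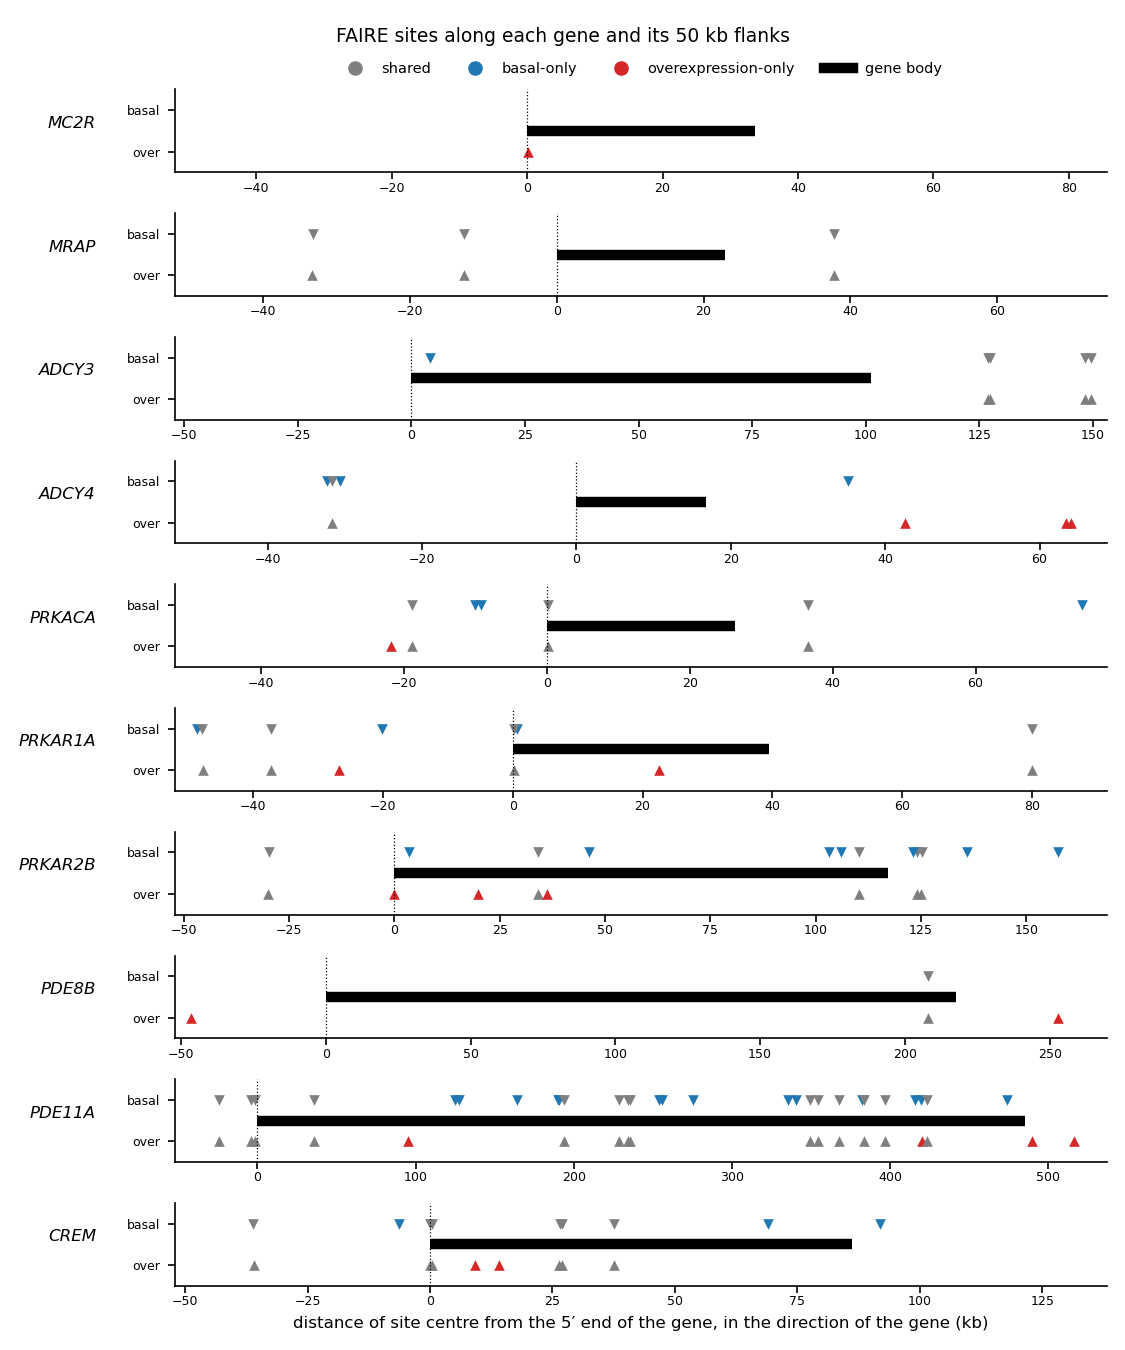
Each panel shows 1 gene as a black bar with site centres by distance from the 5′ end of the gene (x axis, kb, in the direction of the gene). Triangles above the bar are basal sites, those below overexpression sites, with shared sites in grey, basal-only in blue and overexpression-only in red. MC2R and PRKAR2B have a red triangle at 0 kb, and the blue triangles of PDE11A spread along its body.

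The phosphodiesterases PDE8B and PDE11A, which degrade cAMP and in which variants have been linked to adrenocortical hyperplasia, differed in how many sites they had. PDE8B had 1 basal and 3 overexpression sites and none at a promoter. The shared one, chr5:76714251-76714499 at basal expression (249 bp) and chr5:76714101-76714399 under overexpression (299 bp), overlapped coding sequence of the gene and moved from 90.8% to 21.7% of the list, the largest move to an earlier position among the 41 member pairs. The overexpression-only site chr5:76459701-76459899 (199 bp, 61.5%) lay 46375 bp upstream, held 2 SF-1 motifs, and was 19051 bp from the nearest basal site. PDE8B had the nearest coding 5′ end to that site, but the site also lay in the body of ZBED3-AS1. The other overexpression-only site (149 bp, 91.7%) lay in the body of WDR41.

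PDE11A, whose gene body spans 485095 bp on the minus strand, had 28 basal sites, 24 of them intronic, and 18 overexpression sites, 11 of them intronic. Of the basal sites 14 were shared and 14 were not, and all 14 basal-only sites lay in introns. The basal-only sites ranged from 99 to 449 bp, and the widest, chr2:178718751-178719199, stood at 4.61% of the basal list with no overexpression site within 18251 bp. The overexpression-only sites numbered 4, and the widest of them (chr2:178483351-178483799, 449 bp) lay at the promoter of TTC30A, downstream of PDE11A.

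All 5 basal sites of PDE11A with an SF-1 motif were shared, and none of its 14 basal-only sites held one. Their overexpression partners differed in where they stood. The site shown at 178744786 widened from 399 to 499 bp and moved from 21.7% to 3.35%, and the one at 178738848 widened from 549 to 649 bp and moved from 31.9% to 10.1%. The site at 178605650 narrowed from 449 to 199 bp and moved from 1.61% to 64.7%. The widest shared basal site, chr2:178549201-178549799, spanned 599 bp and 499 bp under overexpression, and stood at 6.87% and 3.27%. The site that moved later holds CAAGGCCA, and the other 3 shown hold CAAGGTCA. The shared site upstream of PRKAR1A, however, holds CAAGGCCA 3 times and moved earlier, from 85.5% to 21.5%. The shared CREM intron site with the motif moved later, from 7.83% to 28.8%, and its letters are not shown here. Whether the letters go with the direction of a move was not tested. At the fifth PDE11A site with the motif, chr2:178576251-178576399, the motif fell outside the overexpression site, which overlapped it by 49 bp.

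The promoter site of PDE11A was shared and lay at an internal transcript start, 178937504, 35566 bp into the gene by site centre. It spanned 199 bp at basal expression (chr2:178937401-178937599, 46.5%) and 149 bp under overexpression (83.6%). The 5′ end of the whole gene had no site within 1 kb in either list. The nearest shared site upstream, chr2:178974601-178974899, fell from 299 to 99 bp in width, from 67.1% to 99.7% of the list.

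CREM, whose products bind CREs and include the repressor ICER made from an internal promoter, had 9 basal and 8 overexpression sites with 6 shared. At the first promoter both lists held chr10:35416051-35416249 (199 bp) and a site of 349 bp that began at 35415551 in the basal list and at 35415601 under overexpression. This promoter also serves CUL2 on the other strand, so these sites belong to both genes. The internal site, chr10:35484651-35484949 (299 bp, list position 70.8%), covered transcript starts there and was basal-only, with the nearest overexpression site 31351 bp away. The CRE shown above, at chr10:35484780-35484787, lies in this site.

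In the introns of CREM both lists held 3 shared sites, of which chr10:35442501-35442899 (399 bp basal, 449 bp overexpression) was the widest and held an SF-1 motif. The list position of that site went from 7.83% to 28.8%. The overexpression-only sites were the intronic chr10:35424851-35425049 (199 bp, with an SF-1 motif) and a site of 99 bp at 98.2% of the list. Upstream, chr10:35379501-35379749 widened from 249 to 549 bp, the largest gain in width among the member pairs, at a start of CUL2.

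Over the 10 genes, by place of the site centre, 8 basal sites were at promoters, 2 in exons, 32 in introns (42.7%, 31.3 to 54.6), 18 upstream and 15 downstream. The overexpression sites divided into 7, 4, 19 (32.2%, 20.6 to 45.6), 14 and 15. The intervals of the intronic shares overlap, but 15 of the basal and 14 of the overexpression intronic sites were shared. The 2 shares are therefore not independent. PDE11A alone held 24 of the 32 basal and 11 of the 19 overexpression intronic sites. A promoter site of the gene itself was in both lists for 5 genes (PRKACA, PRKAR1A, PRKAR2B, PDE11A and CREM). It was in the overexpression list alone for MC2R, and in neither for MRAP, ADCY3, ADCY4 and PDE8B. Over all coding genes the shares were 41.7% in both lists, 7.18% in the overexpression list alone and 5.04% in the basal list alone. The remaining coding genes had none, so lacking a promoter site was common. At a promoter of a neighbouring gene lay 15 sites of each list. The place of sites was not counted over the whole lists, so these place counts have no background. Basal-only promoter sites were found for 3 genes, PRKAR1A, PRKAR2B and CREM, beside 11.2% of coding genes. Overexpression-only promoter sites were found for MC2R and PRKAR2B, beside 13.3%. The rule counts any annotated transcript start, and PRKAR1A, PRKAR2B and CREM had 22, 17 and 44 of them. By the 5′ end of the gene alone, 1 gene had a basal-only and 2 an overexpression-only promoter site. With sites within 500 bp counted as shared, the counts were 2 and 2. With 10 genes, these counts describe the genes named and no more.

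Shared member sites were wider than condition-only ones, with medians of 299 against 199 bp in the basal list and 249 against 199 bp in the overexpression list, and the medians of all sites in the lists had the same values. Shared sites also stood earlier, at a median of 28.2% against 71.3% in the basal list and 29.5% against 66.2% in the overexpression list. Within 10 kb of the genes, the overexpression medians were 51.4% and 63.5%. The gap from a basal-only site to the other list had a median of 8701 bp and ran from 301 to 55451 bp, and 2 of the 34 had an overexpression site within 500 bp. For the overexpression-only sites the median gap was 14500 bp, from 501 to 188751 bp at MC2R, and 0 of 18 had a basal site within 500 bp. Most of the condition-only sites were thus not near misses of the overlap rule.

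Of the 41 overlapping member pairs, 14 were wider under overexpression (34.1%, 20.1 to 50.6), 18 narrower and 9 equal, beside 36.2% wider over all pairs. Earlier positions in the overexpression list were held by 21 pairs (51.2%, 35.1 to 67.1), beside 46.8% of all pairs. As a group the shared sites of the 10 genes showed no lean toward either condition beyond these intervals. Single pairs at PDE8B, PRKAR1A and PDE11A moved far, some earlier and some later, as given above. How often pairs of the whole lists moved as far was not counted, so these moves have no background.

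**Figure D4:**
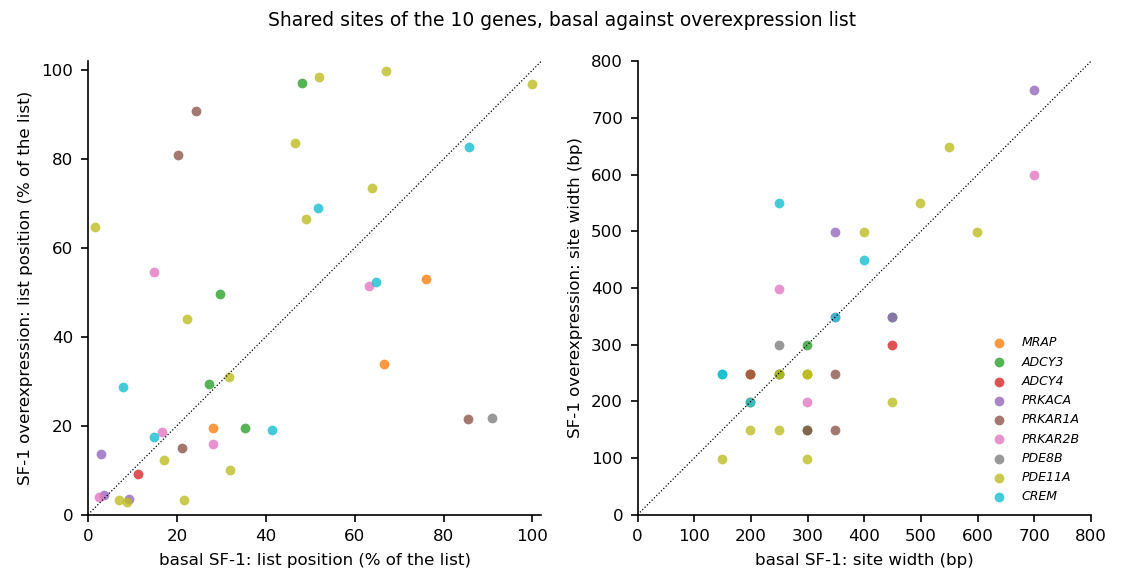
Each point is 1 of the 41 shared pairs, coloured by gene, with the basal list on the x axis and the overexpression list on the y axis, for list position (left, % of the list) and width (right, bp). The dotted line marks equal values, and PDE8B (90.8% to 21.7%) and a PRKAR1A site (85.5% to 21.5%) lie far below it while the PRKAR1A promoter (24.4% to 90.7%) lies far above.

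Exact SF-1 motifs were found in 7 of 41 shared basal sites (17.1%, 7.15 to 32.1), in 5 of 34 basal-only sites (14.7%, 4.95 to 31.1) and in 3 of 18 overexpression-only sites (16.7%, 3.58 to 41.4). Over all sites of the same classes the shares were 12.1%, 13.4% and 14.0%, against 3.63%, 2.51% and 2.54% of stretches of equal length beside them. The intervals of the member sites hold the shares of all sites, so a difference was not detectable with these numbers, and the motif was found in basal-only and overexpression-only sites alike. The full CRE was in 2 of 34 basal-only sites, those at CREM and PRKAR1A (5.88%, 0.72 to 19.7), beside 0.469% of all basal-only sites. It was in 0 of 41 shared sites, beside 2.05%, and in 0 of 18 overexpression-only sites, beside 0.596%. The 2 member sites with the full CRE lay at promoters, and its share among all basal-only promoter sites was not counted.

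The short CRE (TGACG, which also lies within the full CRE) was in 10 of 41 shared basal sites, 4 of 34 basal-only sites and 0 of 18 overexpression-only sites (exact interval up to 18.5%), beside 24.0%, 8.85% and 9.82% over all sites. AP-1 motifs (TGACTCA or TGAGTCA) were in 1, 3 and 1 of these sites, beside 6.26%, 7.76% and 5.01% of all sites of the classes. CTCF motifs were in 7, 4 and 2, beside 18.5%, 16.4% and 12.8%. Letters of the same base composition as the SF-1 motif (GACATGCA or GACACGCA) were in 2, 1 and 0, beside 1.05%, 0.837% and 0.914%. All motifs were searched on both strands, and a match is a description of letters, not of bound protein.

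**Figure D5:**
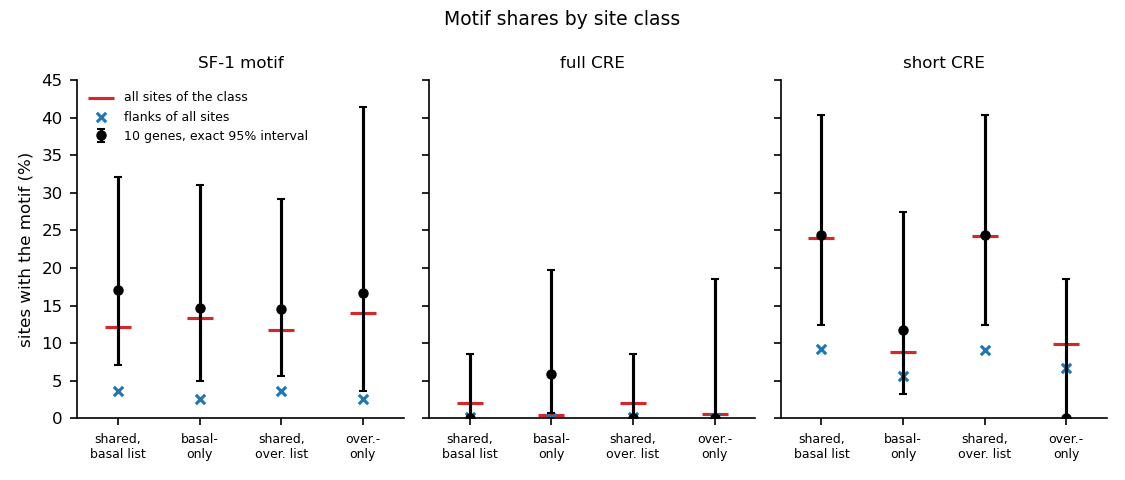
Black points give the percent of the sites of the 10 genes with a motif (y axis) by class (x axis), with exact 95% intervals, red bars the percent over all sites of the class, and blue crosses that of stretches beside all sites. For the SF-1 motif the red bars lie within the black intervals in every class, and the full CRE appears among the members in basal-only sites alone.

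Median GC content was 46.3% for shared member sites of the basal list, beside 53.2% for all shared basal sites, and 40.0% for basal-only member sites, beside 40.5%. In the overexpression list the values were 46.3% beside 53.5% for shared and 44.5% beside 46.5% for overexpression-only sites. Both extremes belonged to PRKAR2B, with 82.2% at its promoter site and 29.5% at the basal-only site far inside the gene.

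A further 51 genes of the cAMP pathway (receptors and G proteins, other cyclases, PKA subunits and inhibitors, other phosphodiesterases, nuclear effectors, anchoring proteins and EPAC) had 213 basal and 194 overexpression sites. Basal-only and overexpression-only sites each lay near 35 of them (68.6%), beside 60.7% and 60.6% of coding genes. Promoter sites were in neither list for 20 and in both for 23, beside 41.7% of coding genes in both. They were in the overexpression list alone for MC5R, GNAL and PDE1C, beside 7.18% of coding genes. In the basal list alone they were found for PKIA, PDE3A, PDE4A, PDE4B and PDE7B, beside 5.04%. The remaining coding genes had a promoter site in neither list. More overexpression than basal sites were found for 17 of the 51 genes and the reverse for 22, beside 33.2% and 35.0% of coding genes. None of these counts was tested against the background. The median density of the 51 genes was 1.19 and 1.07 sites per 100 kb, below the 4.09 and 3.12 of the 10 genes. Both sets were chosen with earlier results of these data known, so this gap is a description only. Of the 51 genes PDE4D had the most, 33 and 22 sites, 13 of its basal sites shared.

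The labelled cell type was checked with 8 genes of steroid-producing cells, of which 5 had promoter sites in each list, with STAR, CYP17A1 and CYP21A2 in both, CYP11A1 and SCARB1 under overexpression alone and NR5A1 and FDX1 at basal expression alone. HSD3B2 had none. Promoter sites were common among all coding genes, of which 41.7% had one in both lists. A further 7.18% had one in the overexpression list alone and 5.04% in the basal list alone. The 5 of 8 steroid-cell genes in each list therefore say little by themselves about the cell type. Of 8 markers of other cell types (hepatocyte, leukocyte, endothelium, islet, muscle, epidermis and neuron) 0 had a promoter site in either list. Sites within 50 kb lay near 5 of them at basal expression and 4 under overexpression, beside 86.3% and 86.5% of coding genes. With 8 genes in each set, these counts were not tested against the background.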

How the data were processed

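FAIRE-seq was carried out on H295R/TR SF-1 cells, and samples were grouped by their labels into 2 conditions with 1 FAIRE and 1 input library each. The input libraries were not analysed here. Each deposited file was a browser track of peaks with chromosome, start, end, peak number, score and strand. The score deposited was 1000 for every peak and was not used. Starts lay on a grid of 50 bp. The submitters' processing notes name hg19 and CASAVA 1.8. The aligner, peak caller and threshold of the FAIRE libraries are not given in the sources used here, and the part that calling had in widths and numbers of sites was not tested.

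Coordinates are 1-based on GRCh37. Genes came from GENCODE release 44 mapped to that build. Member sites overlapped a gene body with 50 kb on either side, promoter sites lay within 1 kb of the 5′ end of any annotated transcript, and shared sites had 1 bp or more in common. The list position is the peak number as a percent of the list length. Motifs were searched exactly on both strands, CTCF with 1 mismatch, and in stretches of equal length 1000 bp away. Shares have exact Clopper-Pearson intervals, which cover counting error only, since sites are no replicates. No test between conditions was possible. Named sites were all promoter sites and the widest site per gene and class, and further sites with a motif or a large shift were chosen after their values were seen. The 10 genes and the gene lists were chosen with earlier results of these data known. Scripts were tested on simulated data (Python 3.11.15, numpy 2.4.6, pandas 2.3.3, scipy 1.17.1, pyfaidx 0.9.0.4, matplotlib 3.10.9). Alternatives in window, overlap, promoter, width and list length were run.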

Additional observations from a re-analysis of the deposited data

How the results depend on the processing

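Of 120 values under alternatives, 99 stayed within 1.5 times the main count or within the exact 95% interval of the main value, and the others follow from the sites or the rule that each setting changes by construction. The overexpression member sites numbered 35 and the overexpression-only sites 10 in a window of 10 kb, where introns held 62.7% of basal and 54.3% of overexpression sites. In the gene body alone the counts were 42 and 30. With sites whose nearest coding 5′ end was that of the member, they were 25 and 21, with 12 basal-only and 8 overexpression-only. With sites of at least the pooled median width of 249 bp, they were 43 and 36, with 19 basal-only. Without PDE11A the basal sites numbered 47 and the basal-only sites 20. When sharing needed an overlap of 50% of both sites, 42.7% of basal and 54.2% of overexpression sites were shared. By the 5′ end of the gene alone, 3 genes had a basal promoter site, 1 had a basal-only one and 2 had one in the overexpression list alone. Lists of equal length, without the last 3204 basal peaks, kept every value within those bounds. SF-1 matches in the MC2R site rose from 0 to 3 when 1 mismatch was allowed. No paired analysis was possible because each condition had 1 FAIRE library. Depth is unknown, so a site missing from a list may reflect it.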
